A study of Mus musculus with 13 samples.

Results

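A set of 10 transcripts that mark T cells and natural killer (NK) cells was followed through RNA-Seq libraries of sorted endothelial cells (ECs), and each of the 10 was listed by symbol in every library, among 24984 genes in the tumor ECs and 24421 genes in the sprouting ECs. The set was chosen by symbol because 3 of its genes, Cd2, Ctsw and Itm2a, had higher counts in every Apelin-depleted tumor library than in every Apelin wild-type tumor library, so the difference between those tumor groups is given below as a description and without a test. The other 7 were Cd3e, Cd3d, Cd3g, Nkg7, Gzmb, Gzma and Ptprc. The tumor ECs were CD31+/CD105+ cells from E0771 tumors, a mouse mammary cancer line grown in syngeneic C57BL6/J mice, and 100 cells entered each library. The Apelin-depleted group held 3 libraries from Apln-/- mice bearing tumor cells with a short hairpin RNA against Apln (shApln), and the Apelin wild-type group held 6 libraries from wild-type mice bearing tumor cells with a control hairpin (shRenilla), so that Apelin of the host and Apelin of the tumor were lost together. The study's methods state that CD45+ cells and DAPI+ cells were excluded in the tumor sort. The sprouting ECs were CD31+ cells sorted from embryoid bodies (EBs) of mouse embryonic stem cells on a C57BL/6x129 background that carry a gene trap in Apln, stimulated with VEGF at 30 ng/ml, with 2 libraries labelled sense (trap active) and 2 labelled antisense (trap reversed), each from haploid stem cells. The study's legends add that the sense cells received DMSO and the antisense cells received Apelin, so that genotype and peptide differ together, and no CD45 exclusion is stated for this sort. The labels do not say which libraries came from separate animals or cultures, and p-values therefore measure the spread between libraries only.

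T cells recognise antigen through a receptor whose signals are carried by the CD3 chains, which are encoded by Cd3e, Cd3d and Cd3g, and the receptor does not reach the cell surface without them. Cytotoxic T cells and NK cells kill target cells by releasing granules that hold granzymes, perforin and other proteases, and both cell types carry adhesion receptors such as CD2. Ptprc encodes CD45, a phosphatase found on nearly all nucleated blood cells and absent from vascular endothelium, so it is the transcript of the protein used to keep leukocytes out of the sort.

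Total counts were 4661044 to 14455093 in the tumor libraries and 12327030 to 16804071 in the sprout libraries, and 3 counts, the level below which a gene was treated as not detectable in a library, were worth 0.211 to 0.593 and 0.177 to 0.244 CPM (counts scaled to the TMM-normalized library size). Apln, the targeted gene, was at 12.0, 8.49 and 2.43 CPM in the Apelin-depleted libraries and at 414 to 1028 CPM in the wild-type libraries. Pecam1 (CD31) lay between 1005 and 1785 CPM and Eng (CD105) between 1272 and 3210 CPM over all 9 tumor libraries, as the gate requires. Over the sprout libraries, sorted on CD31, Pecam1 lay between 138 and 273 CPM and Eng between 76.7 and 174 CPM. Both were lower in the sense libraries in edgeR's quasi-likelihood test (Pecam1 log2 fold change -0.80, adjusted p = 0.0244; Eng -1.06, adjusted p = 0.00746). In the sprout libraries Apln was at 66.0 and 80.1 CPM in the libraries labelled sense and at 58.1 and 65.9 CPM in those labelled antisense, slightly higher in both sense libraries (log2 fold change 0.24, adjusted p = 0.367 in edgeR's quasi-likelihood test), so it was not lower in the libraries labelled sense. In bulk libraries of this kind, more cells of a type and more RNA per cell cannot be told apart.

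Ptprc was detected in 8 of the 9 tumor libraries despite the CD45 exclusion. The counts were 233, 0 and 205 in Apelin-depleted replicates 1, 2 and 3, and 26, 3, 22, 302, 97 and 38 in wild-type replicates 1 to 6. The groups overlapped, the depleted libraries spanning 0 to 39.4 CPM and the wild-type libraries 0.291 to 59.7 CPM, with the highest value in wild-type replicate 4. The depleted mean was 21.4 ± 19.9 CPM (SD, n = 3) and the wild-type mean 14.8 ± 22.7 CPM (SD, n = 6), a ratio of 1.45, with a log2 fold change of 0.53 (SE 1.56). The direction rested on single libraries, since the ratio was 0.840 without depleted replicate 1 and 3.65 without wild-type replicate 4. Ptprc lies on the minus strand of chromosome 1 (GRCm38, chr1:138062861-138175708).

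**Figure D1:**
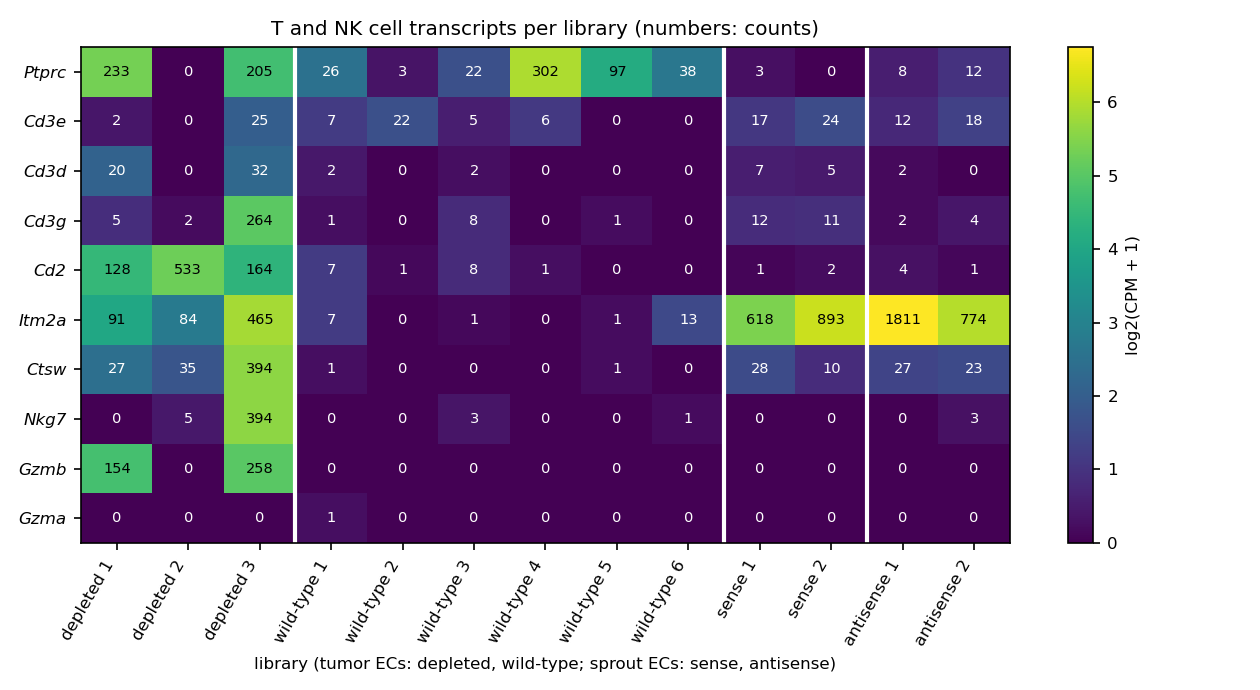
Counts (printed numbers) and log2(CPM + 1) (colour) of the 10 transcripts in 9 tumor EC libraries and 4 sprout EC libraries, with white lines between groups. Cd2, Itm2a and Ctsw have counts in all 3 Apelin-depleted libraries, Gzmb has counts in depleted replicates 1 and 3 only, and Itm2a is highest in the sprout libraries.

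The CD3 genes did not form 1 block. Cd3e, the epsilon chain, had 2, 0 and 25 counts in the depleted libraries and 7, 22, 5, 6, 0 and 0 in the wild-type libraries. Its groups overlapped, at 1.13 ± 1.67 against 0.848 ± 0.839 CPM (SD, n = 3 and n = 6), and the ratio of 1.33 became 0.200 without depleted replicate 3 and 1.99 without depleted replicate 2. Cd3d, the delta chain, had 20, 0 and 32 counts against 2, 0, 2, 0, 0 and 0, so depleted replicates 1 and 3 stood above every wild-type library and depleted replicate 2 had none. The mean of Cd3d was 2.42 ± 2.12 against 0.0934 ± 0.154 CPM, a ratio of 26.0 that became 39.0 without depleted replicate 2, and the wild-type mean was 0.0392 CPM without wild-type replicate 1. Cd3g, the gamma chain, had 5, 2 and 264 counts against 1, 0, 8, 0, 1 and 0. Depleted replicate 3 alone held 97.0% of the Cd3g CPM of its group, and the ratio of mean CPM was 58.1 with it and 2.6 without it. Wild-type replicate 3 held 8 of the 10 wild-type counts, and the wild-type mean fell from 0.190 to 0.0711 CPM without it.

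Summed over Cd3e, Cd3d and Cd3g, the counts were 27, 2 and 321 in the depleted libraries and 10, 22, 15, 6, 1 and 0 in the wild-type libraries. In CPM the sum was 4.57, 0.140 and 39.0 against 1.82, 2.14, 1.47, 1.19, 0.173 and 0, so depleted replicate 2, whose total count was the highest of all 9, lay below 5 of the 6 wild-type libraries. Cd3d and Cd3g are neighbours on chromosome 9 (GRCm38, Cd3d on the plus strand at chr9:44981786-44987339, Cd3g on the minus strand at chr9:44969572-44980431) whose start sites lie 1355 bases apart and point away from each other, and Cd3e follows on the minus strand at chr9:44998740-45009627. The 250 bases before the RefSeq start site (GRCm38.p6) are shown for both, because the pair shares this short interval and both had counts in depleted replicates 1 and 3. The Cd3d window is chr9:44981536-44981785 (plus strand) and the Cd3g window is chr9:44980432-44980681 (minus strand). Capitals mark matches, on either strand, to 3 short motifs, named after the factor families known to bind such letters. The first is TGTGGT, bound by RUNX factors. The second is AGATAA, bound by factors of the GATA family. The third is AGGAAG, bound by ETS factors.
Cd3d: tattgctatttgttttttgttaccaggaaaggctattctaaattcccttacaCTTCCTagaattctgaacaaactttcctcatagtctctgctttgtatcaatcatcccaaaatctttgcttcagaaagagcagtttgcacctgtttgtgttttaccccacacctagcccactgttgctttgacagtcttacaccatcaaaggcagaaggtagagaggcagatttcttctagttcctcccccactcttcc
Cd3g: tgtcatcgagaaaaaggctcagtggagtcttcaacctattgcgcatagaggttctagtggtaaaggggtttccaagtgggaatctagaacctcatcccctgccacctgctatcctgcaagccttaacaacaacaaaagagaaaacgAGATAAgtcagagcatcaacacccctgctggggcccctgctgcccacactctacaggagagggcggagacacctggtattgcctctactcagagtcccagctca
Cd3d held 1 ETS match 198 bases before the start site, and Cd3g held 1 GATA match 104 bases before it. Among 32851 promoter windows of the same length, 29.5% held the ETS letters, 9.99% the GATA letters and 14.0% the RUNX letters on either strand, so such matches are common and are given as a description only. Promoter sequence was at hand for 8 of the 10 genes, and not for Cd2 and Ctsw.

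Cd2, the adhesion receptor of T and NK cells that binds CD48 in mice, had 128, 533 and 164 counts in the depleted libraries and 7, 1, 8, 1, 0 and 0 in the wild-type libraries. Every depleted library lay above every wild-type library, the lowest depleted value being 19.9 CPM and the highest wild-type value 1.27 CPM. The depleted mean was 26.3 ± 9.63 CPM (SD, n = 3) and the wild-type mean 0.392 ± 0.522 CPM (SD, n = 6), which is 67.2 times higher, and the log2 fold change was 6.02 (SE 1.09). Without wild-type replicate 1 the ratio was 122. Cd2 was the most even of the detected members within the depleted group, with 47.4% of the summed CPM of the 3 libraries in its highest library, which was depleted replicate 2, where CD3 was nearly undetected. Cd2 lies at chr3:101275899-101287939 on the minus strand (GRCm38) and overlaps no other annotated gene.

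Itm2a encodes an integral membrane protein of the BRICHOS family that rises on activated and maturing T cells and is also made in other tissues, cartilage among them. Its counts were 91, 84 and 465 in the depleted libraries and 7, 0, 1, 0, 1 and 13 in the wild-type libraries. Again the groups did not overlap, with a lowest depleted value of 5.90 CPM and a highest wild-type value of 1.83 CPM. The mean was 25.9 ± 26.9 against 0.563 ± 0.790 CPM, a ratio of 46.1, and the log2 fold change was 5.51 (SE 1.22). The ratio was 18.9 without depleted replicate 3 and 83.9 without wild-type replicate 6, which held 13 of the 22 wild-type counts. The related genes Itm2b and Itm2c, which are broadly expressed, had log2 fold changes of 0.24 (SE 0.31) and 0.02 (SE 0.36), both with an adjusted p of 1.00 in edgeR's quasi-likelihood test. Itm2a lies on the X chromosome (GRCm38, chrX:107397099-107403376, minus strand). Its window of 250 bases before the RefSeq start site (chrX:107403361-107403610) is shown because Itm2a was the only member abundant in all 4 sprout libraries, which are described further on.
Itm2a: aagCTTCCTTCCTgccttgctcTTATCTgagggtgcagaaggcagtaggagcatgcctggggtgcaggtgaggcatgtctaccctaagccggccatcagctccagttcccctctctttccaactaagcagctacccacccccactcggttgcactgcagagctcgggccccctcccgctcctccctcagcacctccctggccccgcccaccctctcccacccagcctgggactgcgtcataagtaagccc
It held 1 GATA match at 228 bases and 2 overlapping ETS matches at 247 and 243 bases before the start site.

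Ctsw encodes cathepsin W, a cysteine protease of cytotoxic T and NK cells. It had 27, 35 and 394 counts in the depleted libraries and 1, 0, 0, 0, 1 and 0 in the wild-type libraries. No wild-type library exceeded 0.182 CPM and no depleted library fell below 2.46 CPM, but 87.2% of the depleted CPM came from depleted replicate 3, and the depleted mean of 18.3 ± 25.7 CPM became 3.51 CPM without it. With pooled counts, the depleted group was 353 times the wild-type group, and the 95% exact interval for counting error alone ran from 97.1 to 2922. Only 2 wild-type counts, 1 each in replicates 1 and 5, stand behind it. The interval is no test, since Ctsw was chosen on this contrast. It takes reads as independent, although PCR copies were not removed, and does not cover the spread between libraries. The log2 fold change was 8.11 (SE 1.4), and 5.68 without depleted replicate 3. Ctsw (chr19:5465043-5468507, minus strand, GRCm38) overlaps Fibp on the opposite strand, and the tumor libraries do not mark the strand, so reads of the overlap cannot be assigned. Fibp itself was at 28.9 to 36.9 CPM in the depleted libraries and 40.6 to 85.4 CPM in the wild-type libraries, lower where Ctsw was higher.

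**Figure D2:**
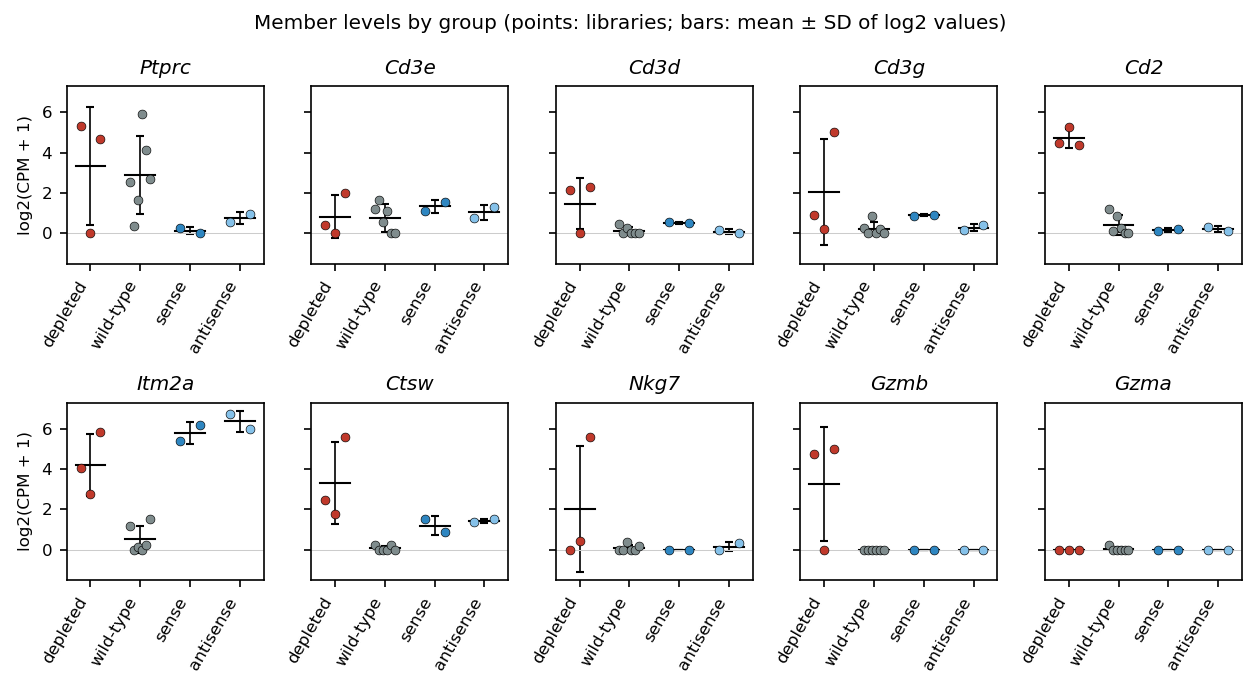
Level of each transcript, as log2(CPM + 1), in each library (points), with the mean and SD of each group (bars; 3 Apelin-depleted, 6 wild-type, 2 sense and 2 antisense libraries). The 3 depleted points lie above all 6 wild-type points for Cd2, Itm2a and Ctsw, while those of Ptprc and Cd3e overlap the wild-type points.

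The remaining granule genes were uneven. Nkg7, a membrane protein of cytotoxic granules, had 0, 5 and 394 counts in the depleted libraries and 0, 0, 3, 0, 0 and 1 in the wild-type libraries. Depleted replicate 3 held 99.3% of its group's CPM, and the ratio of mean CPM was 222 with that library and 2.42 without it, while the wild-type mean of 0.0725 CPM was 0.0282 CPM without wild-type replicate 3. Gzmb, granzyme B, a serine protease that triggers death of the target cell, had 154, 0 and 258 counts in the depleted libraries and none in any wild-type library. Its mean of 19.1 ± 16.8 CPM was at least 280-fold higher than the wild-type level that 3 counts over the 6 libraries would give (0.0683 CPM), or at least 191-fold without depleted replicate 3 and at least 420-fold without depleted replicate 2. Gzma, granzyme A, had 1 count in wild-type replicate 1 and none in the other 8 tumor libraries, so no fold change is given. Gzma was thus not detectable in the libraries where Gzmb reached 26.0 and 31.4 CPM. The Gzmb window (chr14:56262335-56262584, minus strand, GRCm38.p6) is shown because Gzmb was the only member with counts in the depleted group and a count of 0 in every other library, sprouts included.
Gzmb: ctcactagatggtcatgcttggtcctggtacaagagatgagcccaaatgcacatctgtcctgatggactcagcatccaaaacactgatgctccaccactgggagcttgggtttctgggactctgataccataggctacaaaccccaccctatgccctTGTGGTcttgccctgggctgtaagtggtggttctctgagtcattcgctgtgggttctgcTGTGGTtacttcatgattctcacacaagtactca
It held 2 RUNX matches, 93 and 34 bases before the start site. In the Gzma window 1 RUNX match lay 50 bases before the start site. Gzmb lies at chr14:56258838-56262260, Gzma at chr13:113093825-113100981 (both minus strand) and Nkg7 at chr7:43437073-43438249 (plus strand), and none of them overlaps another annotated gene.

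Over the set, 3 of 10 members (Cd2, Ctsw, Itm2a) were higher in every depleted than in every wild-type library. Such a pattern was found for 142 of 13073 genes that passed the filter on low counts (1.09%) and for 175 of 21887 genes with any count (0.8%), and since the members were selected on this contrast, nothing is read from that comparison. By the difference in CPM between the lowest depleted and the highest wild-type library, Ctsw was just inside the threshold (2.46 against 0.182 CPM), although by ratio Itm2a was nearer (5.90 against 1.83 CPM). By the same difference, the nearest members outside it were Gzmb (0 against 0 CPM) and Gzma (0 against 0.182 CPM). Gzma had no count in any depleted library, so its small difference reflects its absence rather than a near miss. With depleted replicate 2 left out, 6 members were separated, Cd3d, Cd3g and Gzmb being added. With depleted replicate 1 left out, 4 were, Nkg7 being added. Only 4 members passed the filter in the tumor libraries (Cd2, Ctsw, Itm2a and Ptprc), and the first 3 of these passed through the depleted group, where they were high. At an adjusted p under 0.05 and a log2 fold change over 1, edgeR's quasi-likelihood test called 0 of 13073 genes higher in the depleted libraries (0.0%) and 1 lower (0.00765%), which was Apln. At an unadjusted p under 0.05 it gave 245 higher (1.87%) and 384 lower (2.94%), and DESeq2 called 19 higher (0.0868% of 21887 genes with a count) and 97 lower (0.443%).

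Each Apelin-depleted library carried its own combination of lymphocyte transcripts. All 3 shared Cd2, Itm2a and Ctsw, as the choice of members requires, and differed in the rest. Depleted replicate 1 held Ptprc (39.4 CPM), Gzmb (26.0 CPM), Cd2 (21.6 CPM), Itm2a (15.4 CPM) and Ctsw (4.57 CPM) with Cd3d at 3.38 CPM and no Nkg7. Depleted replicate 2 held Cd2 (37.4 CPM), Itm2a (5.90 CPM) and Ctsw (2.46 CPM), with Ptprc, Cd3e, Cd3d and Gzmb at 0 counts and the highest depth of the 9. Depleted replicate 3 held 9 of the 10 members, led by Itm2a (56.6 CPM), Ctsw (47.9 CPM), Nkg7 (47.9 CPM), Cd3g (32.1 CPM) and Gzmb (31.4 CPM). Members with at least 1 count numbered 8, 5 and 9 in the depleted libraries and 8, 3, 7, 3, 4 and 3 in the wild-type libraries. The granule genes Ctsw, Nkg7, Gzmb and Gzma together had 181, 40 and 1046 counts against 2, 0, 3, 0, 1 and 1. The lowest depleted library thus exceeded the highest wild-type library. Ctsw alone, with 27, 35 and 394 counts in the depleted libraries, already exceeded every wild-type sum. Since Ctsw was selected on this contrast, nothing is read from that separation.

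Other genes of T cells were taken from a list of 35, of which 31 were in the files; the constant regions of the antigen receptors, Trac, Trbc1, Trbc2 and Trdc, were not analysed here. Of these, 14 passed the filter, 11 with a positive and 3 with a negative log2 fold change, and the median was 1.05, beside -0.03 over all genes tested. edgeR's quasi-likelihood test called none of the 14 in either direction, nor did DESeq2, and 2 were higher and 1 lower at an unadjusted p under 0.05. The summed level was 221, 221 and 228 CPM in the depleted libraries and 51.7 to 127 CPM in the wild-type libraries, so the groups did not overlap, but this rested on Thy1. Without Thy1 the sum was 210, 64.8 and 225 CPM in the depleted and 41.2 to 102 CPM in the wild-type libraries, and depleted replicate 2 lay within the wild-type range. The sum was led by Thy1, which fibroblasts and some other cells share with T cells, by Lck, the kinase that starts receptor signalling, and by Tcf7, a transcription factor of naive T cells. Thy1 had 67, 2219 and 24 counts in the depleted libraries against 39, 607, 875, 20, 32 and 6 (156 of the 221 CPM in depleted replicate 2). Lck had 125, 346 and 610 counts against 274, 98, 77, 40, 62 and 221, with a log2 fold change of 1.04 (SE 0.66) and overlapping groups. Tcf7 had 23, 300 and 173 counts against 12, 14, 134, 45, 48 and 77, also overlapping.

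Mean CPM was higher in the depleted group for 25 of the 31 genes and lower for 6. Further T cell genes were named after their values were seen, in both directions. The co-receptor genes Cd8a and Cd8b1 had 55 and 263 counts in depleted replicate 3 and none in depleted replicates 1 and 2, while the wild-type libraries had no Cd8a and at most 7 counts of Cd8b1. Cd4, the co-receptor of helper T cells, had 18, 0 and 0 counts in the depleted and 0 to 11 in the wild-type libraries. Icos, a costimulatory receptor, had 148, 0 and 2 counts against 0 to 18, and Foxp3, the factor that defines regulatory T cells, had 72, 5 and 0 counts against 0 to 36, the latter in wild-type replicate 4. Lat, the adaptor below the receptor, had 156, 0 and 91 counts against 5, 35, 0, 1, 0 and 1, with a log2 fold change of 3.95 (SE 1.61) and an adjusted p of 0.981 in edgeR's quasi-likelihood test. Cd247, the zeta chain of the receptor complex, was detected in all 3 depleted libraries, with 148, 110 and 106 counts, but also reached 108 and 113 counts in wild-type replicates 1 and 2. Zap70, the kinase that docks to the zeta chain, had 0, 1 and 80 counts against 0 to 54. In the other direction, Cd28, the main costimulatory receptor of T cells, had 0, 0 and 2 counts against 43, 31, 0, 8, 2 and 110, with a log2 fold change of -5.65 (SE 2.18), the smallest unadjusted p of the list (0.0195) and an adjusted p of 0.957 in edgeR's quasi-likelihood test. Ccr7, the homing receptor of naive T cells, had 2, 0 and 0 counts against 0, 5, 113, 0, 0 and 0, so wild-type replicate 3 held nearly all of it.

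**Figure D3:**
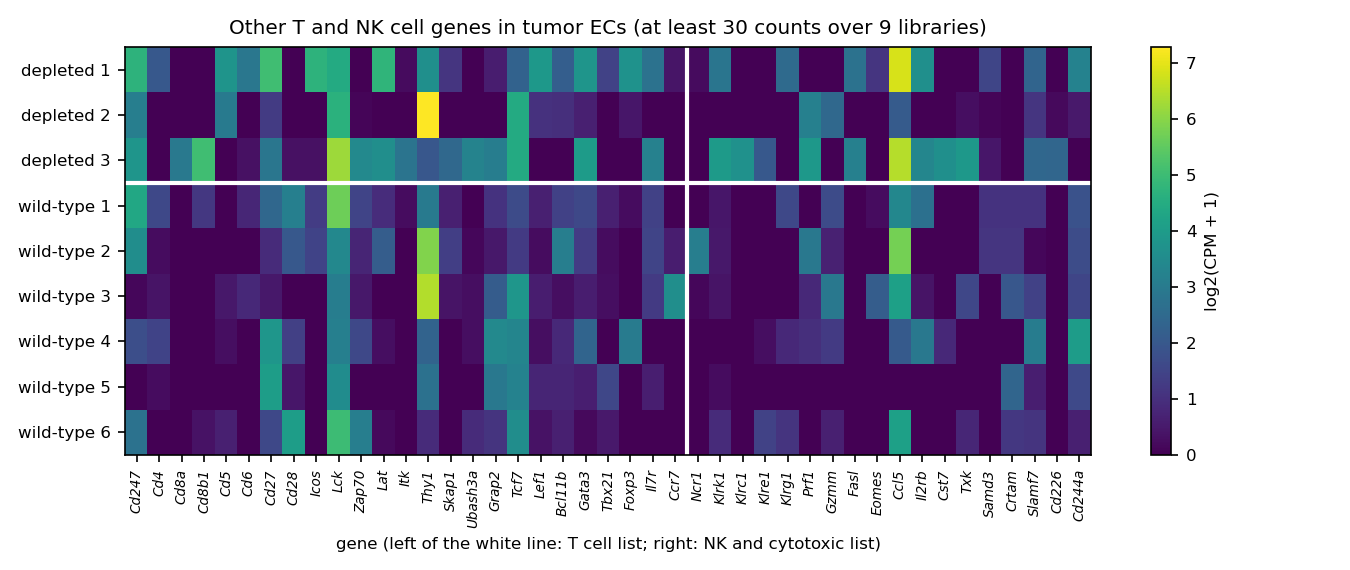
Level, as log2(CPM + 1), of 25 other T cell genes (left of the line) and 18 other NK and cytotoxic genes (right) with at least 30 counts over the 9 tumor EC libraries. Rows are libraries, the 3 Apelin-depleted ones on top. The depleted rows differ in their bright columns, such as Icos in replicate 1, Thy1 in replicate 2 and Cd8b1 in replicate 3. Thy1 is also bright in wild-type replicates 2 and 3.

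Of 34 further genes of NK cells and cytotoxic cells, 32 were in the files and 6 passed the filter, 4 with a positive and 2 with a negative log2 fold change (median 1.23). None was called by edgeR's quasi-likelihood test or by DESeq2, and none reached an unadjusted p under 0.05. The summed level was 160, 18.1 and 186 CPM in the depleted libraries and 7.11 to 74.2 CPM in the wild-type libraries, so the groups overlapped through depleted replicate 2. The median log2 fold change was 0.45 without wild-type replicate 2 and 2.26 without depleted replicate 2. Ccl5, a chemokine that cytotoxic T and NK cells store, led the sum with 677, 47 and 731 counts against 52, 550, 172, 16, 0 and 119, a log2 fold change of 2.04 (SE 1.28). Cd244a, an NK cell receptor for CD48, had 50, 6 and 0 counts against 4 to 78, and Il2rb, a chain of the receptors for interleukins 2 and 15, had 68, 0 and 76 counts against 0 to 33. Mean CPM was higher in the depleted group for 17 of the 32 genes, lower for 10 and 0 in both for 5. The genes that follow were singled out after their values were seen. Fasl, the death ligand, had 34, 0 and 66 counts in the depleted libraries and none in the 6 wild-type libraries; Klrc1, an inhibitory receptor of NK and CD8 T cells, had 97 counts in depleted replicate 3 and none elsewhere; Prf1, perforin, had 0, 115 and 114 counts against 0 to 67. In the other direction, Crtam, an adhesion receptor of activated cytotoxic cells, had no counts in the depleted libraries and 6, 12, 30, 0, 24 and 9 in the wild-type libraries, and Ncr1, the NK cell receptor NKp46, had 1, 0 and 0 counts against 0, 79, 1, 0, 0 and 0. Klrb1c, the NK1.1 antigen that defines NK cells in this strain, had 1 count over the 9 libraries, in wild-type replicate 5, and Klrc2, Klri2, Klra4, Klra8 and Xcl1 were at 0 in every tumor library. Among the 8 other granzyme genes, which resemble Gzmb and Gzma in sequence and could share reads with them, 1 passed the filter, and their summed level was 0.122 to 5.33 CPM in the depleted and 0 to 6.66 CPM in the wild-type libraries. That gene, Gzmm, had 0, 64 and 0 counts in the depleted libraries and 0 to 67 in the wild-type libraries.

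Markers of other leukocytes were read beside these, and their part in the members' levels was not tested. All 21 pan-leukocyte genes passed the filter, 14 with a positive and 7 with a negative log2 fold change (median 0.78), and none was called by edgeR's quasi-likelihood test or DESeq2 (1 higher at an unadjusted p under 0.05). The median turned to -0.44 without depleted replicate 1 and was 1.68 without wild-type replicate 4. Their summed level was 776, 269 and 431 CPM in the depleted and 249 to 1047 CPM in the wild-type libraries. Arhgdib and Lcp1, which ECs also carry, led this sum, and Coro1a, a leukocyte actin regulator, had a depleted mean of 44.5 ± 52.6 CPM (SD, n = 3) and a wild-type mean of 25.9 ± 38.8 CPM (SD, n = 6). Cd48, the ligand of CD2, named after its values were seen, had 39, 0 and 47 counts against 5, 41, 8, 27, 0 and 4, so it too was at 0 in depleted replicate 2, the library with the most Cd2. The macrophage list summed to 1566, 106 and 125 CPM in the depleted and 110 to 780 CPM in the wild-type libraries, the high value of depleted replicate 1 coming from Lyz2 (lysozyme, 3535 counts), Cd14 (1293 counts) and Fcer1g (1118 counts) among others. B cell genes summed to 2.18 to 7.66 CPM against 2.26 to 38.9 CPM, led by Pax5, the factor that fixes B cell identity (1 to 15 counts against 9 to 135), by Cr2, a complement receptor (0 to 23 against 1 to 19), and by Cd79b, a chain of the B cell receptor (0 to 1 against 0 to 33). Neutrophil genes summed to 0.243 to 3.16 CPM against 2.91 to 22.8 CPM, lower in the depleted libraries except for an overlap of depleted replicate 2 with the lowest wild-type library. Wild-type replicate 4 had the highest Ptprc, pan-leukocyte, B cell and macrophage values of its group, yet only 6 CD3 counts and none of Ctsw, Nkg7, Gzmb or Gzma. Of the 12 endothelial genes 11 had a positive log2 fold change (median 0.33), and their sum was 10730 to 14122 CPM against 8466 to 12293 CPM.

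**Figure D4:**
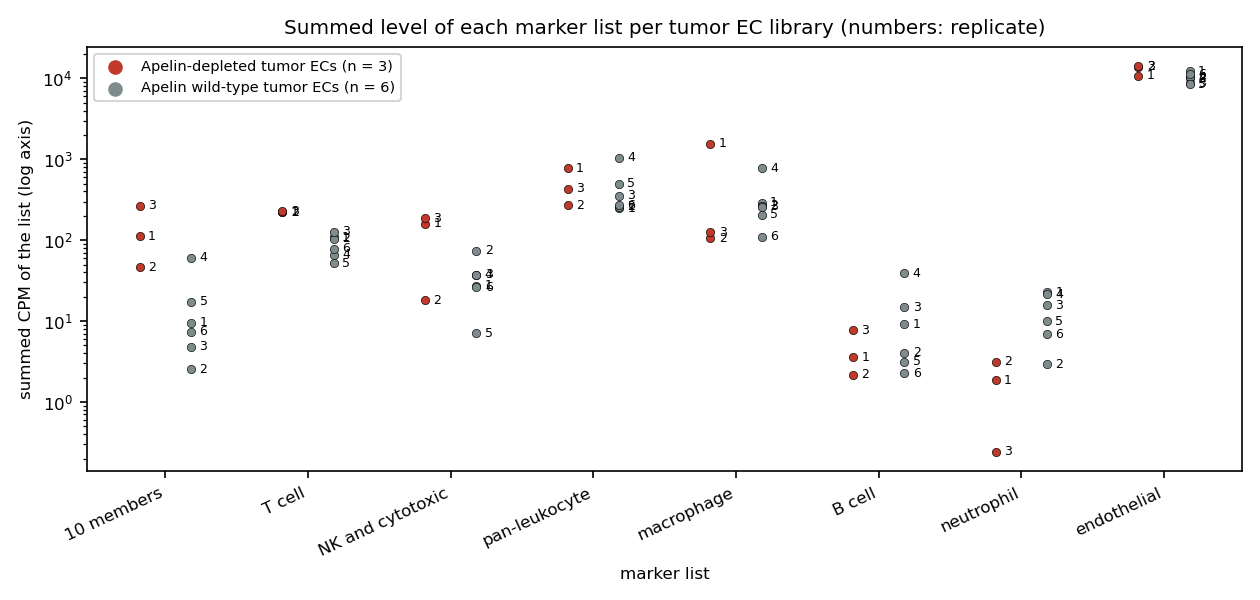
Summed CPM (log axis) of the 10 transcripts and of 7 marker lists in each tumor EC library; numbers beside the points are replicate numbers. The T cell list of the 3 Apelin-depleted libraries (221 to 228 CPM) lies above all 6 wild-type libraries (51.7 to 127 CPM), which does not hold without Thy1, whereas the pan-leukocyte, macrophage and endothelial lists overlap.

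The genes most like the CD3 sum were ranked by Pearson's r of log2(CPM + 1) over the 9 tumor libraries among 13069 genes that passed the filter, as a description without a test, since the libraries share their group and the sum is set mainly by depleted replicate 3. The 8 highest were Flt1 (r = 0.95), Ms4a4b (0.93), Zfp579 (0.93), Fam181b (0.92), Nr2c2 (0.90), Il7r (0.89), Zdbf2 (0.89) and Dok2 (0.87). Of these, Ms4a4b, Il7r and Dok2 are known from T cells or other blood cells. Ms4a4b, a membrane protein of T cells, had 28, 4 and 889 counts in the depleted libraries against 3, 0, 22, 0, 0 and 0. Il7r, the receptor for a survival cytokine of T cells, had 34, 0 and 68 counts against 9, 19, 14, 0, 3 and 0. Dok2, an adaptor of haematopoietic cells, had 84, 0 and 154 counts against 17, 2, 11, 1, 0 and 0. Flt1, the endothelial receptor VEGFR1, ranged from 5619 to 22023 counts and is thus an abundant EC gene at the head of the ranking. The members themselves had r of 0.85 (Nkg7), 0.84 (Ctsw), 0.83 (Gzmb), 0.72 (Itm2a), 0.47 (Cd2) and 0.38 (Ptprc).

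Within the 6 wild-type libraries, which the choice of members did not separate, 5 relations were computed on log2(CPM + 1) and tested by exact two-sided permutation. The CD3 sum and Ptprc had r = -0.38 (exact p = 0.460; rho = -0.71, exact p = 0.136), and r was -0.85 without the 2 libraries farthest from the median of the CD3 sum. The CD3 sum and Cd2 had r = 0.61 (exact p = 0.147; rho = 0.64, exact p = 0.2), which became 0.03 without the 2 farthest libraries and so rests on them. For the CD3 sum and Itm2a r was -0.42 (exact p = 0.392; rho = -0.52, exact p = 0.3), and 0.28 without the 2 farthest. The granule genes had 0 to 3 counts in these libraries, at or under the floor of detection, so their relation with the CD3 sum could not be read. Ptprc and the macrophage list had r = 0.51 (exact p = 0.296; rho = 0.09, exact p = 0.919), and -0.21 without the 2 farthest. After Benjamini-Hochberg adjustment over the 5 relations the exact p was 0.575 for each of these 4 (Spearman: 0.5 for 3 and 0.933 for Ptprc with the macrophage list). With 0 to 8 counts of Cd2, 0 to 13 of Itm2a and 0 to 22 of the CD3 genes in a library, the values are too low to say whether the members vary together in the wild-type libraries.

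The sprouting ECs served as a reference grown without a circulation, and they were not free of these transcripts. Tumor and sprout counts were normalized separately, so levels set across them are approximate. Itm2a had 618 and 893 counts in the libraries labelled sense and 1811 and 774 in those labelled antisense, or 41.8 to 107 CPM with a mean of 70.9 ± 27.1 CPM (SD, n = 4). All 4 sprout libraries lay above all 6 wild-type tumor libraries for Itm2a (highest 1.83 CPM), and depleted replicate 3 (56.6 CPM) lay within the sprout range. The order of Itm2a levels was thus sprout, Apelin-depleted tumor and wild-type tumor libraries, and the first and second overlapped. The sprout and tumor libraries also differed in other cell markers. The endothelial list summed to 644 to 2562 CPM in the sprout and 8466 to 14122 CPM in the tumor libraries. The epithelial list summed to 579 to 967 CPM against 7.65 to 66.6 CPM. The part of other cells in the sprout levels was not tested. Ctsw had 28, 10, 27 and 23 counts in the same order of libraries (0.814 to 1.89 CPM), above every wild-type and below every depleted tumor library, and Fibp, whose gene it overlaps, had 410 to 691 counts. Cd2, by contrast, had 1, 2, 4 and 1 counts (at most 0.236 CPM), below all 3 depleted tumor libraries. Ptprc had 3, 0, 8 and 12 counts, below 5 of the 6 wild-type tumor libraries. Nkg7 had 3 counts in antisense replicate 2 only, and Gzmb and Gzma had none, which allows at most 0.177 to 0.244 CPM in a library.

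The CD3 genes were present at a low level in the sprout libraries. Cd3e had 17, 24, 12 and 18 counts (0.707 to 1.95 CPM), within the range of the wild-type tumor libraries. Cd3g had 12, 11, 2 and 4 counts and Cd3d 7, 5, 2 and 0. Per transcript length, the authors' RSEM estimates put Itm2a at 36.1 to 109 TPM (abundance scaled to length and depth), Cd3d at 6.38 to 10.4 TPM, Ctsw at 0.840 to 2.28 TPM and Cd3e at 0.830 to 1.83 TPM. For Cd3d the RSEM expected counts were 69.6 to 121, against 0 to 7 reads counted by HTSeq in the same libraries. For the other members the RSEM and HTSeq values were close, Cd3g for example having 2 to 13 expected counts and 2 to 12 counts. The level of Cd3d in sprouting ECs therefore depended on the counting method, and the cause of that gap was not tested.

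**Figure D5:**
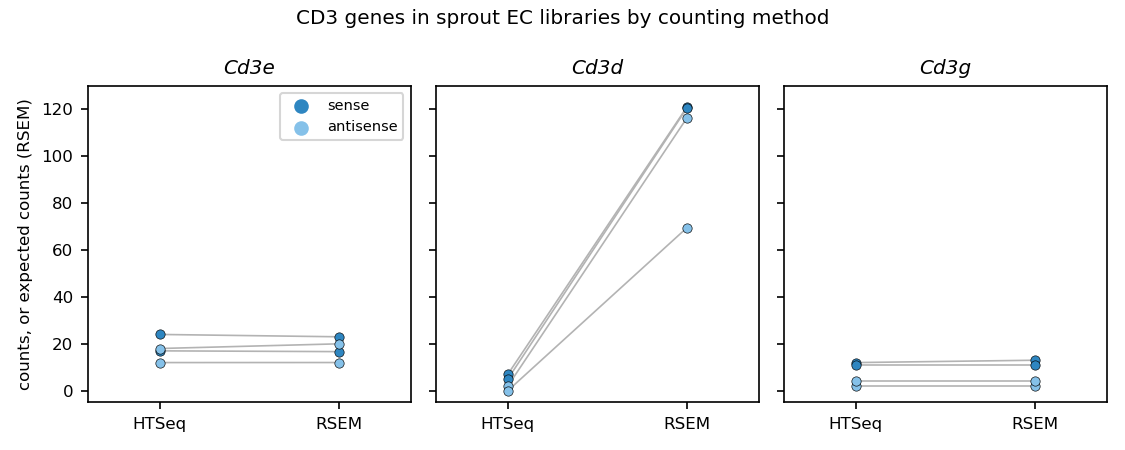
Counts by HTSeq and expected counts by RSEM of the 3 CD3 genes in the 4 sprout EC libraries, with lines joining the values of 1 library. Cd3e and Cd3g hardly differ between the methods, whereas Cd3d has 0 to 7 counts but 69.6 to 121 expected counts.

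Between the sprout groups, 4 members passed the filter on low counts and none was called, beside 0.852% of 14557 genes called higher and 3.03% called lower in the libraries labelled sense. Cd3g was higher in both sense libraries, with a log2 fold change of 1.99 (SE 0.75), an unadjusted p of 0.0288 and an adjusted p of 0.143 in edgeR's quasi-likelihood test. Cd3e had a log2 fold change of 0.54 (SE 0.57, adjusted p = 0.586), Ctsw of -0.32 (SE 0.54, adjusted p = 0.738) and Itm2a of -0.57 (SE 0.39, adjusted p = 0.425), each with overlapping groups. DESeq2 called none of the 10 either, beside 1.02% of 19441 genes called higher and 3.23% called lower. Among members below the filter, Cd3d had 7 and 5 HTSeq counts in the sense and 2 and 0 in the antisense libraries, but RSEM put it at 8.87 and 10.4 against 8.71 and 6.38 TPM, so the size of that difference depended on the counting and no fold is read from it. Ptprc was lower in both sense libraries (3 counts against 20, a pooled ratio of 0.163 with a 95% counting interval of 0.0310 to 0.549, which covers counting error only and not the spread between cultures). The signs in the pan-leukocyte list were even, with 8 positive and 8 negative log2 fold changes among 16 tested genes (median 0.01). Its sum was nevertheless lower in both sense libraries, at 107 and 90.1 CPM against 144 and 166 CPM in the antisense libraries. Among its 21 genes, 8 had both sense libraries below both antisense libraries, and 3 had both above. The share of all genes with such patterns was not computed, so nothing is read from these numbers. edgeR's quasi-likelihood test called Lcp1 (log2 fold change -2.08, adjusted p = 0.00437) and Arhgdib (-1.32, adjusted p = 0.0257) lower in the sense libraries. The same edgeR test called Fermt3 (-1.30, adjusted p = 0.0330) and, of the macrophage list, Fcer1g (-3.38, adjusted p = 0.0387) lower as well. DESeq2 called the first 3 but not Fcer1g. Of the 18 macrophage genes 9 were tested, 7 of them with a negative log2 fold change (median -1.54). At an unadjusted p under 0.05, 4 of the 9 were lower, beside 14.3% of all genes tested. The sum of the macrophage list overlapped (33.2 and 50.3 CPM against 45.0 and 49.3 CPM). Platelet genes summed to 10.01 and 5.13 CPM in the sense and 22.6 and 32.2 CPM in the antisense libraries. Both platelet genes tested were lower at an unadjusted p under 0.05 and neither was called by edgeR's quasi-likelihood test, whereas DESeq2 called 1, Itga2b. Of the 12 endothelial genes 11 were called lower as well, their sum being 644 and 890 CPM in the sense and 2473 and 2562 CPM in the antisense libraries. The epithelial list summed to 967 and 757 CPM in the sense and 637 and 579 CPM in the antisense libraries. Of its 6 genes tested, 2 had a positive and 4 a negative log2 fold change, and none was called. At an unadjusted p under 0.05, 2 of them were higher, beside 12.4% of all genes tested. The part of these lists in the values of Ptprc and the other members was not tested.

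The T cell list was as high in sprouting ECs as in Apelin-depleted tumor ECs, summing to 215 and 285 CPM in the libraries labelled sense and 216 and 224 CPM in those labelled antisense. The genes behind the sum differed, since Tcf7 (877 to 1860 counts), Lef1 (746 to 1193 counts) and Thy1 (217 to 664 counts) led it, while Cd8b1 had 1 count, Cd8a at most 3 and Cd4 at most 8 in any sprout library. Tcf7 and Lef1 encode factors of the Wnt pathway that stem cell derivatives also use. The NK and cytotoxic list summed to 34.4 to 40.3 CPM, of which nearly all was Eomes (443 to 551 counts), a factor of NK cells and also of early mesoderm. Of the T cell list 12 genes passed the filter and edgeR's quasi-likelihood test called none (2 higher and 2 lower at an unadjusted p under 0.05, beside 12.4% and 14.3% of all genes tested), and DESeq2 called 1 lower, Skap1. Of the NK and cytotoxic list 2 passed and none was called by either tool or reached an unadjusted p under 0.05.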

How the data were processed

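RNA-Seq counts of 9 tumor EC and 4 sprout EC libraries were used, each library with its own file and none pooled. For the tumor ECs, the authors deposited whole-number counts per gene from featureCounts (Subread 1.6.2), made from Smart-Seq2 libraries of 100 cells without strand information. The submitters' processing notes also list Bowtie2 2.3.4.1 and Trim Galore 0.5.0, whereas the study's methods name STAR, so the aligner of these counts is uncertain. For the sprout ECs, the authors deposited HTSeq 0.6.1p1 counts after alignment with STAR 2.5.0a, and expected counts and TPM estimated by RSEM 1.2.25. The build was mm10, and positions were taken from GENCODE M21 on GRCm38. HTSeq left out reads that align to several places, which RSEM shares out, so that the values of genes with similar copies can differ between them; PCR copies of a molecule were not removed in any count, since the libraries carry no molecular identifiers.

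Counts were normalized by TMM and fitted in R 4.3.3 by the robust quasi-likelihood test of edgeR 4.0.16, after filterByExpr at a minimum count of 10 and with Benjamini-Hochberg adjustment, in 1 fit for the tumor and 1 for the sprout libraries. A gene was called at an adjusted p under 0.05 and an absolute log2 fold change over 1. CPM used TMM library sizes and a pseudocount of 1 on the log2 scale. Intervals are exact at 95% and cover counting error only. Named genes were the 10 members, Apln, Pecam1 and Eng, the called genes and up to 3 with the highest mean CPM of each list, and the 8 most like the CD3 sum; others are stated as chosen after their values were seen. For the tumor ECs, the platelet, mural and epithelial lists are given in the closing section. Members and lists were chosen with earlier results of these data known. Alternatives were DESeq2 1.42.0, its size factors, other filters, a replicate block, RSEM counts, a pseudocount of 0.5 and leaving out each library; the T cell list without Thy1 and the list medians without each library were added after seeing the data.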

Additional observations from a re-analysis of the deposited data

Results flagged for a closer look

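Within the 6 wild-type tumor libraries, 22 values (the 10 members and the 12 summed lists) were examined for a library standing apart, by the gap to its neighbour as a share of the range against Dixon's critical value of 0.625, and 8 stood apart. Chance flags about 1 in 20 of independent, normally distributed groups. These values are skewed, close to 0 for some members and partly shared between lists of 1 library, so the number is not set against that rate. Wild-type replicate 4 had 59.7 CPM of Ptprc (next highest 16.8), 1047 CPM summed over the pan-leukocyte list (next 499), 38.9 CPM over the B cell list (next 14.9) and 780 CPM over the macrophage list (next 290). Wild-type replicate 2 had 4115 CPM over the pericyte and fibroblast list (next 295). Wild-type replicate 3 had 96.1 CPM over the platelet list (next 25.5) and 0.784 CPM of Cd3g (next 0.182), and wild-type replicate 1 had 0.182 CPM of Gzma, which is 1 count against 0 in the others.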

How the results depend on the processing

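Over all genes of the tumor ECs, 1 was called (Apln, lower), and the number was 116 with DESeq2 (19 higher, 97 lower), 16 without a filter on low counts (9 higher, 7 lower), 2 with a replicate block, and 1 to 2 with each library left out in turn (2 without depleted replicate 1). The members separated between groups numbered 3, and 3 to 6 with each library left out. The log2 fold change of Cd2 was 5.40 with the replicate block and 6.74 without wild-type replicate 1, that of Ctsw was 5.68 without depleted replicate 3, and that of Ptprc ranged from -0.26 (without depleted replicate 1) to 1.88 with a library left out (without wild-type replicate 4) and was 2.16 with the replicate block, against 0.53. Itm2a stayed between 4.21 and 6.54 under 14 alternatives.

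In the sprout ECs 565 genes were called, 854 without a filter, and 148 to 887 with a library left out, where the lone sample of a group was assumed to vary like the other group. The log2 fold change of Ctsw ranged from -1.05 to 0.13 (the latter without sense replicate 2, adjusted p = 0.924 in edgeR). Same-numbered libraries did not deviate together (correlations of -0.07, 0.06 and -0.14 in the tumor and -0.43 in the sprout libraries), so the numbers are taken as names only. With 2 libraries in each sprout group, crossed numbers have the same correlation with the opposite sign, so crossed libraries did deviate together. A replicate block left 44 sprout calls (3 higher, 41 lower), and the crossed numbers, added after seeing the data, gave 1235 (302 higher, 933 lower). With crossed numbers Itm2a had a log2 fold change of -0.57 and an adjusted p of 0.00519 in edgeR, against 0.425 without a block. Nothing is read from that p, because the crossing was chosen after seeing the data.

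Among the relations within wild-type libraries, CD3 with Itm2a ranged from -0.76 to 0.18 and CD3 with the granule genes, on 0 to 3 counts, from -0.32 to 0.38 with a library left out (-0.0181 at a pseudocount of 0.5), and Ptprc with macrophages from -0.37 to 0.66, negative only without wild-type replicate 4. No cause of these shifts was tested beyond the sample left out. Members with under 3 counts in a library lie at the limit of detection there.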

Other observations

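Lists of cells other than leukocytes were measured in the same tumor libraries. Pericyte and fibroblast genes (8 of 9 tested, all 8 with a negative log2 fold change, median -2.31) summed to 66.0 to 184 CPM in the Apelin-depleted and 54.6 to 4115 CPM in the wild-type libraries. The upper end was wild-type replicate 2 alone, the other 5 lying between 54.6 and 295 CPM, and without it 7 of 8 were negative and the median was -1.06. Without Apelin-depleted replicate 1, 9 of 9 were negative and the median was -4.92. Platelet genes summed to 4.42 to 42.1 CPM against 3.38 to 96.1 CPM (at most 25.5 CPM without wild-type replicate 3), and epithelial genes to 9.69 to 44.5 CPM against 7.65 to 66.6 CPM. edgeR's quasi-likelihood test called none of them, with 1 lower at an unadjusted p under 0.05, Pdgfrb, which DESeq2 called lower. Of the neutrophil list 2 genes were tested, and edgeR's quasi-likelihood test called neither. Both were lower at an unadjusted p under 0.05, beside 2.94% of all genes tested. DESeq2 called 2 neutrophil genes lower, S100a8 and S100a9, calcium-binding proteins of neutrophils, beside 0.443% of 21887 genes.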
